A study of Mus musculus with 8 samples.

Results

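The imprinted cluster on distal chromosome 7 was examined through 10 genes of the RNA-seq table. They were taken by symbol from 19429 rows and ordered by their start on the chromosome: H19, Igf2, Ascl2, Cd81, Tssc4, Kcnq1ot1, Cdkn1c, Slc22a18, Phlda2 and Osbpl5. All 10 were present, each as 1 row. The RNA came from mouse embryonic stem cells (mESCs) of the line LF2, grown in medium with serum and LIF, in which TET1 carried FLAG at its C-terminus in both groups. WT cells (lines 2 and 5) had wild-type TET1 and D2018A cells (lines 7 and 8) had an aspartate near the TET1 C-terminus replaced by alanine, a change that weakens binding of the O-GlcNAc transferase OGT. Each line was a clone grown from a single edited cell and was sequenced as 2 technical replicates, 4 libraries per genotype, and the study's methods describe a deletion elsewhere in the genome that WT cells carried and D2018A cells did not.

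Imprinted genes are expressed from only the maternal or only the paternal copy, and this choice is held by DNA methylation set in the germ line. The cluster has 2 control regions. Near H19, a methylation-sensitive region bound by CTCF decides whether nearby enhancers reach the maternal H19 gene or the paternal Igf2 gene. At the start of Kcnq1ot1, methylation on the maternal copy keeps that long noncoding RNA off, and on the paternal copy its transcription goes with silencing of Cdkn1c, Phlda2, Slc22a18 and, in placenta, of more distant genes such as Ascl2, Cd81, Tssc4 and Osbpl5. TET1 oxidises 5-methylcytosine, which is why imprinted genes are of interest in these cells. The reads were not split by parental allele, so all levels are sums over both copies.

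The values are the authors' mean normalized counts, that is, reads per gene scaled for the depth of each library and then averaged across libraries. No value of a single library or of either genotype was analysed here, and the columns in which the authors compared the genotypes were left out. The levels are therefore single pooled values without a standard deviation, and no difference between WT and D2018A is given for any gene. The smallest means fell on 12 shared values that correspond to 1 read in 1 library, with between 38 and 123 rows on each. The averages thus appear to cover at least 12 libraries, 4 more than the 8 samples described, and which cells the other 4 came from was not analysed here. The levels can thus not be assigned to the WT and D2018A lines alone. The size factors of the 12 ranged from 0.726 to 1.47, and the mean normalized total was 10937569. From these, the fewest reads that could lie behind each mean were computed, and intervals given with a mean are exact Poisson intervals (95%) at that number of reads. They cover counting error only.

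All 7 embryonic stem cell markers in the list had means of at least 100, from 204 (Dppa4, higher than 64.9% of rows) to 23079 (Esrrb). Of 8 trophoblast markers, Cdx2 (1.49) and Elf5 (1.13) were near 0 while Tfap2c (1694) and Eomes (199) were not. Of 7 primitive endoderm markers the means ran from 5.16 (Foxa2) to 331 (Sox7), with Dab2 at 123 and Gata4 at 76.8. Of 7 fibroblast markers, which would mark feeder cells, Dcn, Lum and Postn were not among the rows analysed. Col1a2 (0.689) and Col3a1 (0.0930) were near 0, while Col1a1 (115) and Thy1 (194) were not. A mean of 100 was thus also passed by Tfap2c, Eomes, Sox7, Dab2, Col1a1 and Thy1 of the other lists. The part of other cell types in the levels of the cluster was not tested.

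The promoters of the most abundant members show the sequence context from which these transcripts start. The windows are RefSeq promoters of GRCm38.p6, from 250 bases before to 50 bases after an annotated start. Of the 10 members, 8 had at least 1, while H19 and Cdkn1c had none and were not searched for motifs. Capitals mark matches, on either strand, to the TATA box (TATAAA), the CCAAT box (CCAAT), the GC box (GGGCGG) and the core bound by the imprint protector ZFP57 (TGCCGC). Cd81 is shown because it had the highest level, and Kcnq1ot1 because its start lies at a control region and it ranked next. Phlda2 is shown because it ranked next to Cd81 once length was considered. Neither control region was examined as a whole, so the motifs and CpG content of the windows do not describe them.
Cd81, chr7:143052500-143052799, plus strand: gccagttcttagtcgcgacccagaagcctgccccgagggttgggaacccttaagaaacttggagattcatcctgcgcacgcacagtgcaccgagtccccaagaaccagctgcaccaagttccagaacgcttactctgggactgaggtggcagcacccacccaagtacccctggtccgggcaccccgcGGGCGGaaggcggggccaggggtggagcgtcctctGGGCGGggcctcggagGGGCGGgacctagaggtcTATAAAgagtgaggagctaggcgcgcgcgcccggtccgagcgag
Kcnq1ot1, chr7:143296498-143296797, minus strand: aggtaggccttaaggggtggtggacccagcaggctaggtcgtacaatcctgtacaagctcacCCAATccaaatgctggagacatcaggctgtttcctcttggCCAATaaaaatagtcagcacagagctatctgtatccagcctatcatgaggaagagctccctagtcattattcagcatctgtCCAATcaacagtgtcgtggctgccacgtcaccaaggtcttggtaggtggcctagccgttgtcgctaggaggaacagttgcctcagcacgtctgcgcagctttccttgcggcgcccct
Phlda2, chr7:143502475-143502774, minus strand: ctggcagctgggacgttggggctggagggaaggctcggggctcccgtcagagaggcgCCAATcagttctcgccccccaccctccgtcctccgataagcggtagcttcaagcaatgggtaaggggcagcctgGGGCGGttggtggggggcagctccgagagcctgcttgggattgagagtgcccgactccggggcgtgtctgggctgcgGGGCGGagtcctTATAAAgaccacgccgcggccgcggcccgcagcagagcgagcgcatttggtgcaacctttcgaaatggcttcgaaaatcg

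These 3 windows differed in their motifs. The Kcnq1ot1 window held 3 CCAAT boxes, at positions -188, -148 and -67 from the annotated start (position 0), and none of the other motifs. Of all 32841 windows, 37.4% held at least 1 CCAAT box and 3.37% held 3 or more. The Cd81 window held 3 GC boxes (35.7% of all windows held at least 1, and 10.7% held 3 or more) and a TATA box that began at position 6. Phlda2 had a TATA box at position -30, which 13.6% of all windows held at any position, along with 2 GC boxes and 1 CCAAT box. The Ascl2 window also held 3 CCAAT boxes. Among the 13 windows of members, the ZFP57 core was matched in 1 of Igf2 and 1 of Osbpl5, against 11.6% of all windows. Both genes have more than 1 window, and a difference from all windows was not tested. No matches overlapped each other. These are letter matches, and binding was not measured.

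CpG content separated the windows further. The ratio of observed to expected CpG was 0.713 for Cd81, 0.819 for Phlda2, 0.904 for Tssc4 and 0.685 for Ascl2, all above the median of all windows, 0.384. Kcnq1ot1 (0.422) lay close to that median. Slc22a18 had 2 CpGs in its window and a ratio of 0.0919, higher than only 12.2% of windows. Igf2, which RefSeq starts at 4 places, had ratios of 0.0999, 0.791, 0.896 and 0.253 from its outermost to its innermost start, and the 3 starts of Osbpl5 had 0.555, 0.0512 and 0.630. Counts per gene cannot tell these starts apart, so the levels of Igf2 and Osbpl5 are sums over starts whose windows range from CpG-poor to CpG-rich.

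**Figure D1:**
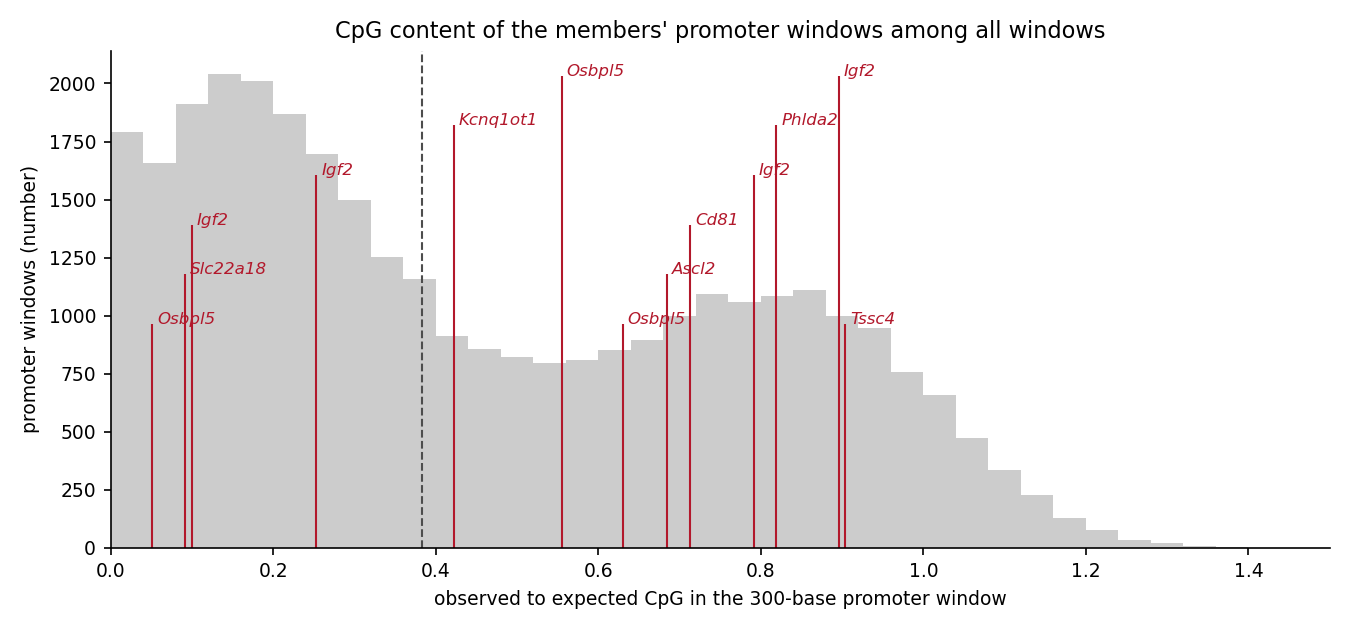
Ratio of observed to expected CpG in 300-base promoter windows. Grey bars count all 32841 windows, red lines mark the 13 windows of 8 members and the dashed line is the median of all windows (0.384). Of the 13, 9 lay above the median, and Slc22a18, 2 of the 4 Igf2 windows and 1 of the 3 Osbpl5 windows lay below it.

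The mean normalized counts of the 10 genes spanned a 326-fold range, and the levels per kilobase of annotated exon, on which genes can be compared, a 556-fold range. Most reads fell in Cd81 and Kcnq1ot1, with means of 6113 and 5007. Phlda2 (341) and Tssc4 (243) followed, and the means of the other 6 genes lay between 10 and 100. Per kilobase the order was Cd81, Phlda2, Tssc4, Kcnq1ot1, Slc22a18, Ascl2, Cdkn1c, H19, Igf2 and Osbpl5. In such bulk samples, fewer expressing cells and less RNA per cell cannot be told apart. The median of the 10 means was 79.0, against 63.2 for all rows, and 6 of the 10 were above that median. None was below 10, although 33.7% of all rows were.

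**Figure D2:**
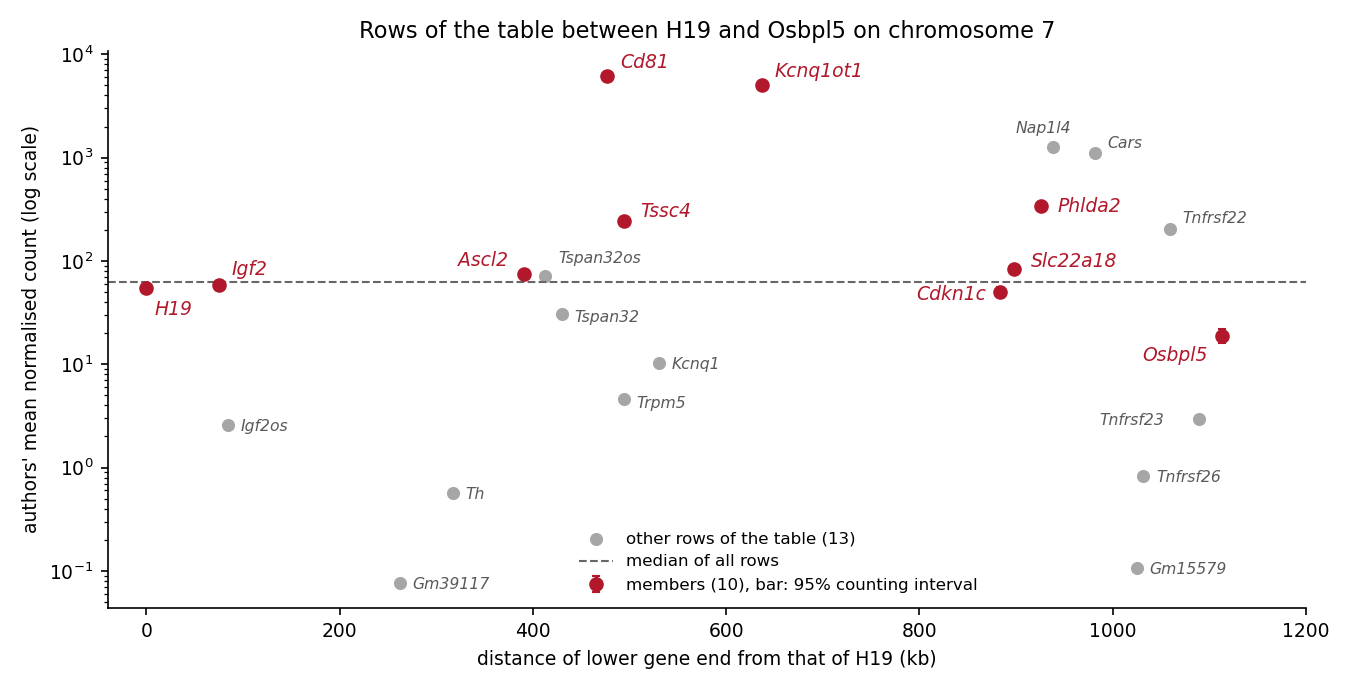
Mean normalized count (log axis) of the 23 rows that start between H19 and Osbpl5, against distance from H19 in kb. Red points are the 10 members with 95% counting intervals, grey points the other 13 rows and the dashed line the median of all 19429 rows (63.2). Cd81 (6113) and Kcnq1ot1 (5007) are the highest points, and H19, Igf2, Ascl2, Cdkn1c and Slc22a18 lie near the dashed line.

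At the H19 end of the cluster both genes had means close to the median of all rows. H19 (chromosome 7, 142575529 to 142578143, minus strand), a maternally expressed noncoding RNA, had a mean of 55.0 (interval 50.2 to 60.1), higher than 48.5% of rows. Igf2 (142650766 to 142666816, minus strand), the paternally expressed fetal growth factor, had 58.6 (53.6 to 63.9), higher than 49.2%. The counting intervals of the means overlapped. Per kilobase of annotated exon the H19 level was 22.4 and that of Igf2 10.2, a 2.18-fold difference in the direction of H19. Igf2os, a noncoding RNA antisense to Igf2, had a mean of 2.61 and 0.489 per kilobase.

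The Igf2 value carries a limit of annotation. In GENCODE vM21 another gene on the same strand, Gm49394, covers 62.8% of the exon bases of Igf2, and 3551 of its 5802 distinct stretches of 50 bases occur in Gm49394 transcripts. STAR assigns a read to a gene only where it overlaps no other gene. Gm49394 was not among the rows analysed here, and whether the authors' annotation held it is not given in the sources used here. If it did, the Igf2 mean counts only the reads outside the shared exons. The level per kilobase, which divides by all exon bases, would then be too low. Its direction against H19 and its place among the members would be uncertain.

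Both genes host a microRNA, and the mature sequences are shown because one precursor lies in an exon of its host and the other in an intron. The sequences are those of RefSeq on GRCm38.p6, with the seed (bases 2 to 8) in capitals.
mmu-miR-675-5p, in an H19 exon, chr7:142577112-142577133, minus strand: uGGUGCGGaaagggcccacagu
mmu-miR-675-3p, in an H19 exon, chr7:142577078-142577099, minus strand: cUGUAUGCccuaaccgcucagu
mmu-miR-483-5p, in an Igf2 intron, chr7:142654968-142654989, minus strand: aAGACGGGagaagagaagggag
mmu-miR-483-3p, in an Igf2 intron, chr7:142654932-142654952, minus strand: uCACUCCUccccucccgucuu

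No seed is shared among these 4. Small RNAs were not measured, so the levels of H19 and Igf2 say nothing of the mature microRNAs. The miR-675 hairpin takes up 3.41% of the exon bases of H19, whereas the miR-483 hairpin lies outside the exons of Igf2. GENCODE vM21 lists the miR-675 hairpin as a gene of its own, and whether reads there were counted for H19 is not given in the sources used here.

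Receptors for IGF2 and the proteins that bind its RNA had higher levels per kilobase than Igf2 itself (10.2). The level per kilobase was 49.2 for Igf1r, the receptor that carries its growth signal, 40.3 for Insr and 80.6 for Igf2r, the receptor that removes IGF2 from the cell surface. Igf2bp1, which binds Igf2 and H19 RNA, had 1269 per kilobase, 124 times the level of Igf2 over all its exon bases. This ratio would be smaller if reads in the exons shared with Gm49394 were not counted. Of the 9 genes of this list that were analysed, 7 had means of at least 100. Igf1, the related ligand, had 0.151 per kilobase.

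A gap of 300 kb separates Igf2 from Ascl2, and the rows between them, Gm39117 (0.0771) and Th (0.565), were close to 0. The Gm39117 mean equals a single read in a single library. Ascl2 (142966829 to 142969264, minus strand), a transcription factor needed in the trophoblast of the placenta, had a mean of 74.7 (69.0 to 80.6) and 46.0 per kilobase. The noncoding neighbour Tspan32os had 72.0 per kilobase and Tspan32 had 4.93. Of the 8 trophoblast markers, Cdx2 and Elf5 had means below 10, Gata3 (13.9), Hand1 (13.6), Krt8 (24.5) and Krt18 (38.5) had means between 10 and 100, and Eomes (199) and Tfap2c (1694) were above 100.

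Cd81 (143052739 to 143067934, plus strand), a tetraspanin of the cell membrane, had a mean of 6113 (6061 to 6165), at rank 213 of all rows. Per kilobase it had 2123, and the next tetraspanins of the list, Cd151 (305) and Cd9 (289), were 6.96-fold and 7.35-fold lower. Cd82 had 3.03 per kilobase and Cd53, a tetraspanin of blood cells, 0.359. Directly downstream of Cd81, Tssc4 (143069249 to 143071093, plus strand), a factor of spliceosome assembly, had 243 (233 to 254) and 132 per kilobase. Tssc4 lies wholly inside Trpm5 on the opposite strand, shares 11.9% of its exon bases with it, and had 184 times its level per kilobase (0.717). Whether counting used the strand is not given, so reads in the shared bases are uncertain.

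Kcnq1ot1 (143212155 to 143296549, minus strand) had a mean of 5007 (4960 to 5054), at rank 301. It runs through Kcnq1 in the antisense direction, and Kcnq1 itself, a potassium channel gene, had 2.53 per kilobase, 21.3-fold below Kcnq1ot1. Kcnq1ot1 lies wholly within the span of Kcnq1. Whether counting used the strand is not given, so the Kcnq1ot1 mean may include reads from Kcnq1 introns, which was not tested. Only 0.130% of the Kcnq1ot1 exon bases lie in Kcnq1 exons, and 0.764% of its stretches of 50 bases occur in transcripts of genes elsewhere. The genome outside annotated transcripts was not searched for such stretches. The transcript is a single exon of 93.1 kb in GENCODE vM21, and only 2 rows had more exon bases. Per kilobase its level was 53.8, at place 4 among the 10 genes and 39.5-fold below Cd81, where the means differed by 1.22-fold. The table gives a shorter span for the gene than GENCODE vM21, 84395 bases, with which the level would be 59.3 per kilobase.

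**Figure D3:**
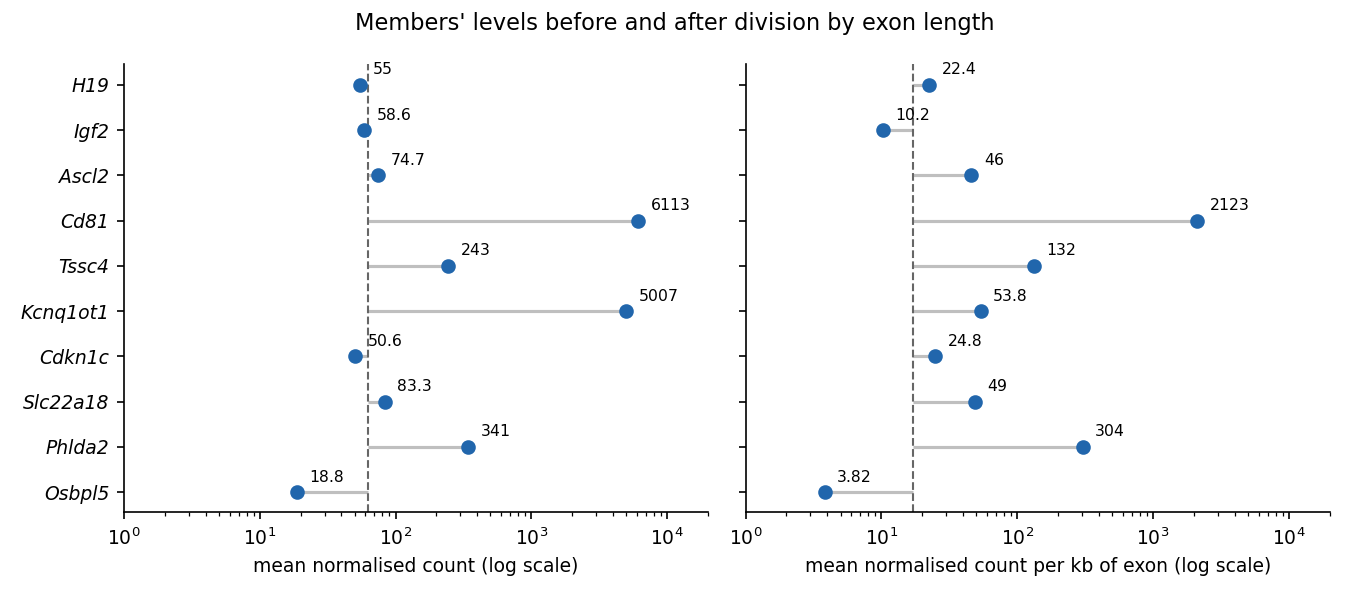
Mean normalized count (left) and the same divided by kb of annotated exon (right) for the 10 genes, both on log axes. Points are single pooled values and dashed lines are the medians of all rows (63.2 and 17.1). Kcnq1ot1 moves from 5007 to 53.8 and H19 and Cdkn1c cross to the upper side of the median, while Cd81 stays highest (2123) and Osbpl5 lowest (3.82).

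Other imprinted noncoding RNAs put these values in context. Meg3 had 359 per kilobase, 6.67 times the level of Kcnq1ot1. Mirg had 173 per kilobase and Nespas 89.5. Airn, the antisense RNA of the Igf2r domain and in mechanism the nearest relative of Kcnq1ot1, had 1.52 per kilobase, 35.5-fold below it. H19 ranked below Meg3, Mirg, Nespas and Kcnq1ot1 per kilobase.

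Cdkn1c, Slc22a18 and Phlda2 are among the genes known to be silenced on the paternal copy by the Kcnq1ot1 domain in the embryo. They are neighbours on the chromosome, and their levels per kilobase differed. Cdkn1c (143458339 to 143461050, minus strand), the cyclin-dependent kinase inhibitor p57, had 50.6 (46.0 to 55.6) and 24.8 per kilobase. Slc22a18 (143473736 to 143499334, plus strand), a membrane transporter, had 83.3 (77.3 to 89.6) and 49.0 per kilobase. Phlda2 (143501545 to 143503150, minus strand), which restrains growth of the placenta, had 341 (329 to 354) and 304 per kilobase, 6.21 times the level of Slc22a18. Slc22a18 in turn had 1.97 times the level of Cdkn1c per kilobase of exon, but per kilobase of genomic span, introns included, it was the lower of the pair (3.25 against 18.7).

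Among the Cip/Kip inhibitors p57 had the lowest level per kilobase. Cdkn1a (p21) had 385 and Cdkn1b (p27) 184 per kilobase, 15.5-fold and 7.40-fold above Cdkn1c. In GENCODE vM21 an antisense gene, Gm44732, shares 30.7% of the exon bases of Cdkn1c. It was not among the rows analysed here, and without knowledge of the strand setting the Cdkn1c value is uncertain to that extent. Phlda2, by contrast, shared no stretch of 50 bases with annotated transcripts of any other gene. It had the highest level per kilobase of its family, above Phlda3 (177) and Phlda1 (13.4). Slc22a18 had the highest level per kilobase of the 8 Slc22 genes analysed, followed by Slc22a17 (26.5) and Slc22a23 (24.0). Before division by exon length the order was reversed, with means of 83.3, 120 and 153.

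**Figure D4:**
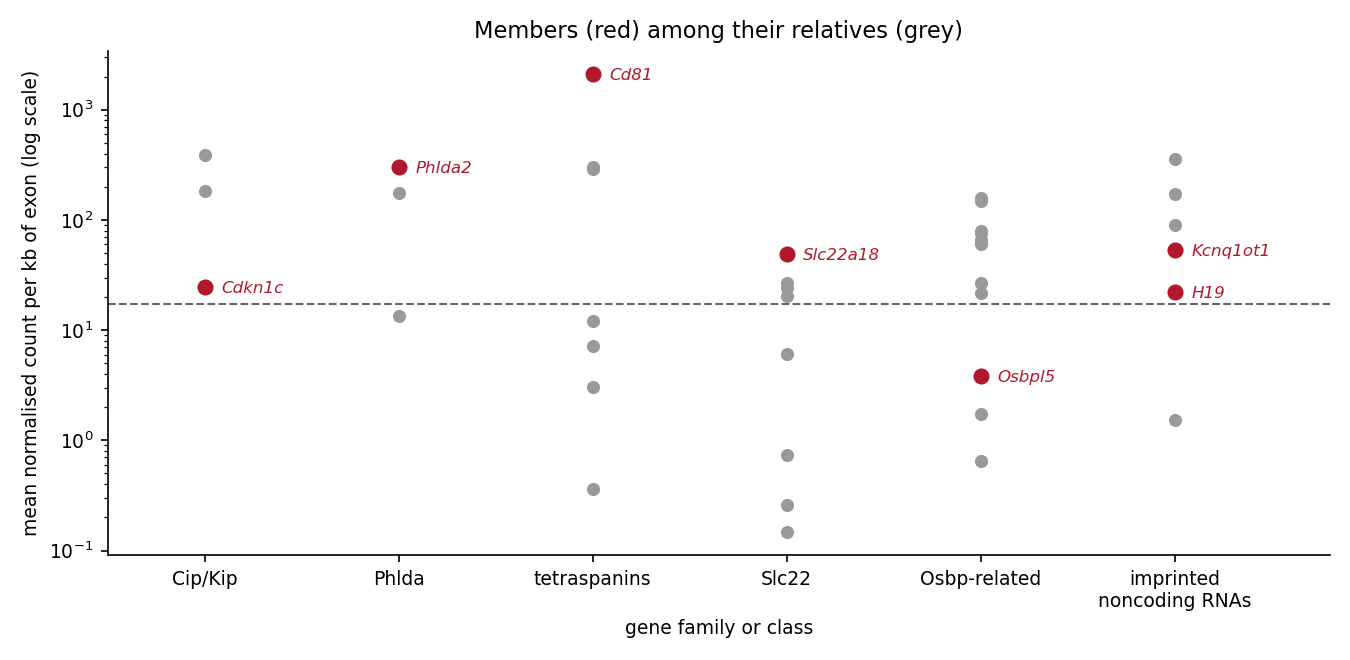
Mean normalized count per kb of exon (log axis) for members (red) and their relatives (grey) in 6 families or classes, each point 1 gene and the dashed line the median of all rows (17.1). Cd81, Phlda2 and Slc22a18 are the highest among the relatives plotted (7 tetraspanins, 3 Phlda and 8 Slc22 genes, other tetraspanins and Slc22 genes not being examined), Cdkn1c is the lowest of 3, and Osbpl5 is at place 10 of 12.

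Osbpl5 (143688762 to 143756985, minus strand), a lipid transfer protein of the oxysterol-binding family, marked the far end of the cluster and had the lowest mean of the 10, 18.8 (16.0 to 21.9), which rested on between 163 and 333 reads in all libraries together. Per kilobase it had 3.82, lower than the median of all rows. Osbpl10 had the highest level of the family, 157 per kilobase, and of its 12 genes only Osbpl6 (1.74) and Osbp2 (0.652) were below Osbpl5.

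Set against the rest of the interval, Cd81 and Kcnq1ot1 accounted for most of its summed mean. Between 142575529 and 143756985, a stretch of 1181 kb, the table held 23 rows with a summed mean of 14755, of which the 10 members made up 81.6% and Cd81 and Kcnq1ot1 alone 75.4%. Phlda2, the next member, gave 2.31%, less than Nap1l4 (8.57%) or Cars (7.58%), which are not members. The sum was not divided by exon length, and Kcnq1ot1 (33.9%) has 93.1 kb of exon. The members were a chosen list, and the median of the other 13 rows was 4.59. Of these, 7 were below 10, 2 of them at a single read, and 3 were above 100. The exceptions were Nap1l4 (1264) and Cars (1119), which lie between Phlda2 and Osbpl5, and Tnfrsf22 (203). Its neighbours Tnfrsf23 and Tnfrsf26 had 2.96 and 0.837.

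Genes for proteins that maintain the methylation at imprinted control regions were expressed in the pooled libraries. Trim28 had 6084 per kilobase, Zfp57 998, Dnmt1 717 and Uhrf1 337. Ctcf, whose protein binds the methylation-sensitive region near H19, had 205 per kilobase. The Polycomb and histone methylation genes tied to silencing along the Kcnq1ot1 domain had 263 (Eed), 104 (Ezh2), 71.8 (Suz12) and 353 (Ehmt2) per kilobase. Dppa3 was the only 1 of these 10 regulators with a mean below 10 (7.28).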

How the data were processed

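RNA-seq libraries of WT and D2018A mESCs were made by the study from total RNA depleted of ribosomal RNA. Per the labels and the study's methods, the authors aligned single-end reads to GRCm38.p6, counted them per gene with STAR 2.5.3a and normalized them with DESeq2 1.20.0. The signal used here is the mean expression column that the authors deposited, gene counts divided by size factors and averaged over all libraries of their fit. The deposited table also holds 5 columns of the authors' comparison of the genotypes (fold change, its error, a statistic and p-values), which were not used. The planned count model needs counts per library and could not be run.

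Rows were matched by gene identifier to GENCODE vM21 (19351 of 19429, and 9 of 10 members with identical start and end), and each mean was divided by the union of annotated exons. A percentile is the share of rows with a lower mean. Means that correspond to 1 read were sought as values shared by at least 30 rows that were no sums of lower such values, which was tested on simulated data. A first simulation missed a library. The simulation, not the threshold, was then revised until all simulated libraries were found, so it gives no independent support for the number found. The number of libraries found is a lower limit. Reads behind a mean were bounded by the number of libraries and the lowest and highest size factor. Shared sequence was counted over all 50-base stretches of member transcripts, sought in annotated transcripts of other genes and not in the whole genome. All members, the other rows of the interval and the genes of fixed lists could be named, and 1 listed family is not reported here. The members and lists were chosen with earlier results of these data known. Alternatives were other sets of rows, other lengths, another pseudocount, leaving out members and other step thresholds. Python 3.11.15, pandas 2.3.3 and SciPy 1.17.1 were used.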

Additional observations from a re-analysis of the deposited data

How the results depend on the processing

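The number of members above the median of the table was 6 over all rows and 4 over protein coding rows, over rows with a mean of at least 1 and over rows with a mean of at least 10, which lack rows of low mean by construction. All 30 percentiles so recomputed were lower than over all rows, and 29 of the 30 left the binomial interval of the value over all rows. For the sets cut by mean the fall was fixed in advance, since no member had a mean below 10. The interval treats the rows as a random sample, so leaving it is no measure of robustness. Per kilobase, 8 members were above the median with exon lengths and with the longest transcript, and 9 with genomic spans. The order of the members was the same with the longest transcript. With spans, Slc22a18 moved from place 5 to 9 (3.25 per kilobase), below Ascl2, H19, Cdkn1c and Igf2, and H19 moved from 8 to 6, above Cdkn1c (21.0 against 18.7). The median of the members as log2(mean + 1) was 6.32, it was 6.30 with a pseudocount of 0.1, and it lay between 6.24 and 6.40 when each member was left out. The 12 steps were also found with at least 20 rows per step, but 5 with at least 50, since the threshold then exceeds the rows on most steps. The fewest reads behind Osbpl5, 163, became 225 with a size factor of 1 in every library. No paired analysis was possible because no column holds a single library, and for the same reason leaving out lines and another normalization were not run. Counting error was widest for rows of few reads, such as Osbpl5 among the members, and the spread between lines was not analysed here.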
